A study of Mus musculus with 12 samples.

Results

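The ER chaperones and unfolded protein response (UPR) genes described here are 10 genes taken by symbol, *Hspa5*, *Hsp90b1*, *Calr*, *Canx*, *Pdia4*, *Pdia6*, *Dnajc3*, *Xbp1*, *Ddit3* and *Herpud1*. All 10 were among the 25860 genes with RNA-seq values, and all 10 passed the filter on low counts. CD8+ T_prog_ cells, progenitor T cells sorted from pancreatic lymph nodes, were profiled by RNA-seq and by ATAC-seq, with 3 libraries of each kind per genotype. *NOD-TCR 8.3 UTX TCD* mice carried floxed alleles of *Kdm6a*, the X-linked gene for the chromatin regulator UTX, and a Cre transgene driven by the *Lck* promoter, which is active in T cells from the thymocyte stage. *NOD-TCR 8.3 WT* mice were the UTX-sufficient controls. Cre-negative littermates served as controls in the parent line without the receptor transgene, and whether the same held for these mice is not given in the sources used here. Both groups were female, on the nonobese diabetic background, and carried the 8.3 transgenic T cell receptor, which recognizes a peptide of the β cell antigen IGRP. The age of these mice is not given in the sources used here. The methods of the study give the sort gate as Ly108+CD39-, whereas the series description names CXCR6 in place of CD39.

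Secreted and membrane proteins fold in the endoplasmic reticulum (ER) with the help of chaperones, lectins and disulfide isomerases. When unfolded proteins build up, the ER sensors IRE1, PERK and ATF6 start the UPR, which raises chaperone production through XBP1 and ATF6, slows translation through phosphorylation of eIF2α, and induces ATF4 and CHOP. Activated T cells enlarge their ER as they begin to make cytokines and cytotoxic proteins.

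Expression is given as normalized counts, that is, the reads of a gene divided by 1 size factor per library. Reads counted in genes numbered 146456724, 144503203 and 193568919 in the WT libraries against 61512402, 175462433 and 187275082 in the *UTX TCD* libraries, so that *UTX TCD* replicate 1 was the shallowest. The limma test used log2(normalized count + 1) for the 14459 genes whose mean was 10 or more, and p-values were adjusted over all of them. Of these genes, 3.39% had a mean under 10 in 1 genotype and so passed the filter only through the genotype where they were high, which is stated for those named that passed the test. Log2 fold changes are *UTX TCD* over WT with their standard error (SE), from 3 libraries per genotype. A gene was called when its adjusted p was under 0.05 and its absolute log2 fold change over 0.5. *Kdm6a* (chromosome X, 18160862 to 18279936) was at 28365, 28949 and 29172 in WT against 24158, 24792 and 24579 in *UTX TCD* libraries. All *UTX TCD* values of the targeted gene lay below all WT values (log2 fold change -0.23, SE 0.04, limma adjusted p = 0.00114), in the direction of the labels, but a count per gene does not tell exons apart.

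Of the 10 genes, 5 had an adjusted p under 0.05 in limma, with *Hspa5* and *Ddit3* higher (2 genes) and *Calr*, *Dnajc3* and *Herpud1* lower (3 genes) in *UTX TCD* cells. Among all tested genes 40.7% passed, 20.2% higher and 20.5% lower, so this count is near the background. *Ddit3* alone was called, 1 of 10 beside 17.6% of all tested genes. Values of the genotypes did not overlap for 7 of the 10 genes, beside 51.9% of all tested genes. The median log2 fold change of the 10 genes was 0.05, beside -0.00 over all tested genes, and the median absolute log2 fold change was 0.19, beside 0.21.

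*Hspa5* encodes BiP, the Hsp70 chaperone of the ER lumen, which also binds the UPR sensors. It lies on chromosome 2 of GRCm38 (mm10) from 34772090 to 34776529 on the plus strand. Its normalized count was 73138, 81308 and 78214 in WT against 95255, 101983 and 100458 in *UTX TCD* libraries. The lowest *UTX TCD* library stood above the highest WT library. Means were 77553 ± 4125 in WT and 99232 ± 3528 in *UTX TCD* libraries (SD, n = 3), a ratio of 1.28 that stayed below the limit for a call (log2 fold change 0.36, SE 0.05, limma adjusted p = 0.000762). *Hsp90b1* encodes GRP94, the Hsp90 chaperone of the ER. The libraries gave 100215, 109859 and 103644 in WT against 102646, 106163 and 107766 in *UTX TCD* libraries. The genotypes overlapped, with the highest and the lowest value both in WT, and the difference was smaller than its error (log2 fold change 0.01, SE 0.05, limma adjusted p = 0.846).

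*Dnajc3* encodes p58IPK, an ER co-chaperone of BiP that is also known to inhibit PERK. It was at 36675, 34893 and 37965 in WT against 29190.3, 30420.1 and 29663 in *UTX TCD* libraries. Every *UTX TCD* library was below every WT library. Means were 36511 ± 1542 in WT and 29758 ± 620.4 in *UTX TCD* libraries (SD, n = 3; log2 fold change -0.29, SE 0.04, limma adjusted p = 0.000843). BiP and this co-chaperone thus moved in opposite directions in the same libraries.

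*Calr* encodes calreticulin, the soluble ER lectin that binds monoglucosylated glycoproteins, and *Canx* encodes its membrane-bound relative calnexin. For *Calr* the values were 66559.7, 65742 and 66569.7 in WT against 54728, 54698 and 58497 in *UTX TCD* libraries. The WT libraries lay close together, all above the *UTX TCD* libraries. Means were 66291 ± 475 in WT and 55974 ± 2185 in *UTX TCD* libraries (SD, n = 3; log2 fold change -0.24, SE 0.04, limma adjusted p = 0.00199). For *Canx* the values were 66075, 72670.0 and 68083 in WT against 70858, 73595 and 78859.7 in *UTX TCD* libraries. WT replicate 2 lay within the *UTX TCD* range, and the test was not passed (log2 fold change 0.11, SE 0.06, limma adjusted p = 0.145). Without *UTX TCD* replicate 3 its log2 fold change was 0.07.

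*Pdia4* and *Pdia6* encode protein disulfide isomerases, which form and rearrange disulfide bonds in the ER. *Pdia4* was at 21900.0, 22207 and 22069 in WT against 22264, 22355 and 23766 in *UTX TCD* libraries. The genotypes did not overlap, but the gap was narrow and the test was not passed (log2 fold change 0.05, SE 0.04, limma adjusted p = 0.402). *Pdia6* was at 13577, 14606 and 14178 in WT against 14159.9, 14481 and 15555 in *UTX TCD* libraries. Its genotypes overlapped (log2 fold change 0.06, SE 0.05, limma adjusted p = 0.367). Without *UTX TCD* replicate 3 the log2 fold change was 0.02 for *Pdia4* and 0.02 for *Pdia6*, and without WT replicate 1 it was 0.03 for *Pdia6*. With libraries scaled to equal sums of reads it was 0.11 for *Pdia4* and 0.12 for *Pdia6*. Neither gene passed the test at that scaling (limma adjusted p = 0.0705 and 0.0945).

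*Xbp1* encodes the transcription factor whose mRNA is spliced by IRE1, an event that a count per gene does not show. It was at 5115, 5039 and 5242 in WT against 5522, 5470.0 and 5837 in *UTX TCD* libraries. All *UTX TCD* values were above all WT values, yet the test was not passed (log2 fold change 0.13, SE 0.05, limma adjusted p = 0.0592). When libraries were scaled to equal sums of reads, *Xbp1* and *Canx* passed it in limma, at adjusted p = 0.0118 and 0.0436. Their log2 fold changes were then 0.19 and 0.17.

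*Ddit3* encodes CHOP, the transcription factor that is induced downstream of ATF4. The libraries gave 2527, 2699 and 2274 in WT against 4155, 3732 and 3635 in *UTX TCD* libraries. The genotypes did not overlap, and the highest value was in *UTX TCD* replicate 1, the shallowest library. Means were 2500.1 ± 214 in WT and 3841 ± 276 in *UTX TCD* libraries (SD, n = 3), a ratio of 1.54 (log2 fold change 0.62, SE 0.08, limma adjusted p = 0.00032). *Herpud1* encodes HERP, a membrane protein of the ER-associated degradation machinery that is induced in the UPR. It was at 6013, 6178 and 6388 in WT against 5070.1, 5156 and 4961 in *UTX TCD* libraries. Each *UTX TCD* value lay below each WT value (log2 fold change -0.29, SE 0.05, limma adjusted p = 0.00113).

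**Figure D1:**
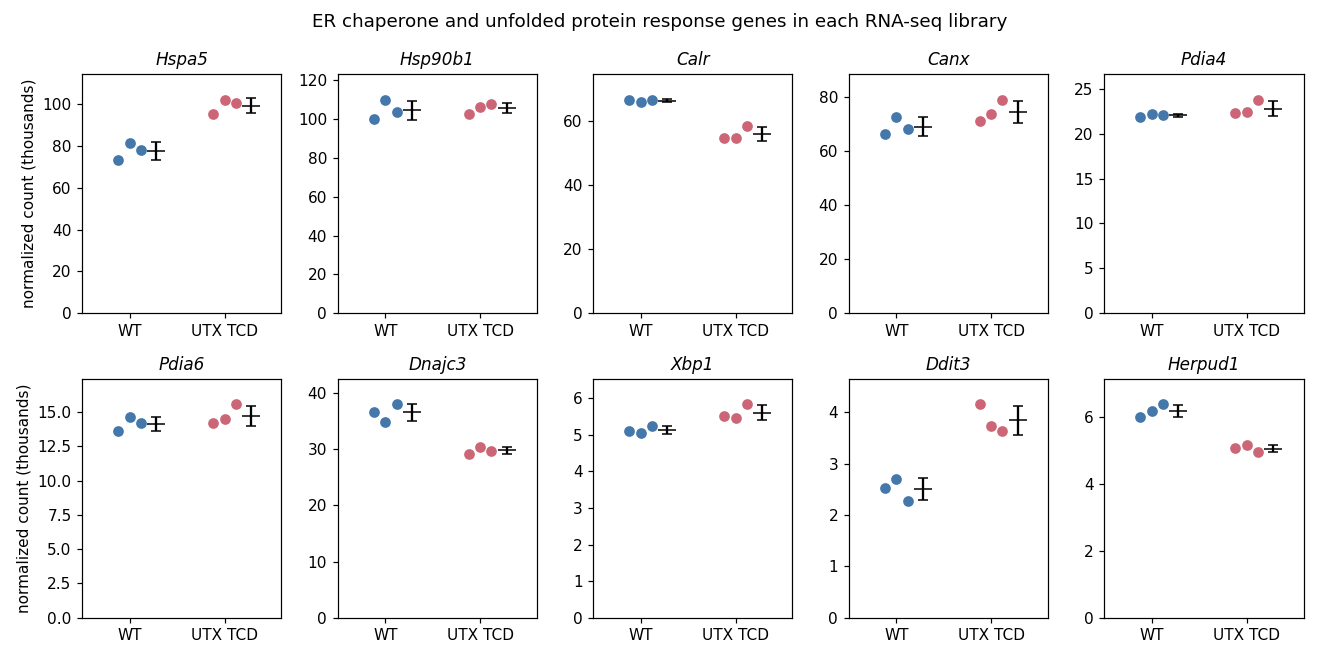
Normalized count (linear axis from 0, in units of 1000) of the 10 genes in each RNA-seq library of WT (blue) and *UTX TCD* (red) T_prog_ cells, with the mean and SD (n = 3) in black. The *UTX TCD* points lie above the WT points for *Hspa5* and *Ddit3*, narrowly above them for *Pdia4* and *Xbp1*, and below them for *Calr*, *Dnajc3* and *Herpud1*.

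Levels of different genes were compared per kb, as the normalized count divided by the length of all RefSeq exons of the gene. In WT cells *Hsp90b1* was highest at 37902 per kb, followed by *Calr* at 34118, *Hspa5* at 29646 and *Canx* at 16074 per kb. *Pdia4* stood at 8308, *Dnajc3* at 7035 and *Pdia6* at 6579.8 per kb, and the libraries of *Dnajc3* and *Pdia6* overlapped. *Herpud1* at 3168, *Xbp1* at 2284 and *Ddit3* at 984 per kb were the lowest. The order differed in *UTX TCD* cells at 2 places. *Hspa5*, at 37933 per kb, lay above *Calr*, at 28808 per kb, and overlapped *Hsp90b1*, at 38248 per kb. *Pdia6*, at 6865 per kb, lay above *Dnajc3*, at 5734 per kb, without overlap of the libraries. *Herpud1*, at 2589 per kb, overlapped *Xbp1*, at 2497 per kb. Among 13890 tested genes with an exon length, *Hspa5* ranked 199 in WT and 132 in *UTX TCD* cells by level per kb, and *Ddit3* ranked 6549 and 5224.

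Together the 10 genes took 0.270%, 0.291% and 0.274% of the counted reads in WT against 0.292%, 0.298% and 0.311% in *UTX TCD* libraries. The lowest *UTX TCD* share was just above the highest WT share, and no test of it was made. A share of all reads scales libraries to equal sums of reads, where the median log2 fold change of all tested genes was 0.06. The order of the genotypes is given for that scaling only, and sums of normalized counts were not compared. *Hspa5*, *Hsp90b1*, *Calr* and *Canx* supplied between 78.1% and 80.6% of these reads in each library.

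The genes whose values were most like those of *Hspa5* were *Dnmt3a*, *Ccdc77* and *Vps13c*, with root mean square differences of 0.01, 0.02 and 0.02 between log2 values centered on each gene's mean over the 6 libraries. For *Xbp1* they were *Cwf19l1*, *Sephs1* and *Aars1*, with differences of 0.01, 0.01 and 0.02 on the log2 scale. This comparison covered 9037 genes with a mean normalized count of 1000 or more.

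Genes of the pathway were read from 9 lists chosen by function, which include the 10 genes, and heat shock genes outside the ER from 1 more list. Of 111 tested genes of the 9 lists, each counted once, 16 were higher and 25 lower at an adjusted p under 0.05 in limma, 6 were called higher and 0 called lower, and the median log2 fold change was -0.01. Without the 10 genes, 14 of 101 were higher and 22 lower, 5 were called higher and 0 called lower, and the median was -0.02. Among those called, *Pdia5* and *Atf3* passed the filter only through *UTX TCD* libraries, and 4 genes of the 9 lists were called higher without them. Over the 9 lists, 1 gene (*Phgdh*) was called lower without WT replicate 1, WT replicate 2 or *UTX TCD* replicate 2. Without *UTX TCD* replicate 3, 2 genes (*Phgdh* and *Serp1*) were called lower and 7 higher, *Derl3* being added. Over all tested genes 20.2% were higher, 20.5% were lower, 17.6% were called and the median was -0.00, and the counts of each list stand beside these shares. Genes named below without a value were named after their values were seen. Among 18 ER Hsp70 and Hsp90 chaperones and their helpers, 2 were higher and 6 lower, with a median of -0.01 on the log2 scale. *Sil1*, the nucleotide exchange factor of BiP, was higher together with *Hspa5*, with means of 1624 ± 100.3 in WT and 2048 ± 75.0 in *UTX TCD* libraries (SD, n = 3; log2 fold change 0.34, SE 0.07, limma adjusted p = 0.00494). *Serp1*, which encodes a small membrane protein of the translocon, had the largest change of the list (log2 fold change -0.42, SE 0.09, limma adjusted p = 0.00553). The other lower genes besides *Dnajc3* were *Dnajb9*, *Dnajc10*, *Creld2* and *Manf*.

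In the calnexin and calreticulin cycle, 3 of 10 tested genes were lower and none was higher in limma, with a median log2 fold change of -0.02. Besides *Calr*, these were *Mogs*, the glucosidase that trims the first glucose (log2 fold change -0.21, SE 0.06, limma adjusted p = 0.0218), and *Uggt1*, which returns misfolded glycoproteins to the cycle (log2 fold change -0.16, SE 0.04, limma adjusted p = 0.013). Both missed the threshold when libraries were scaled to equal sums of reads, at limma adjusted p = 0.0626 and 0.0596, where the log2 fold change of *Uggt1* was -0.10. Each also missed it without WT replicate 3, at 0.075 and 0.0533 as adjusted p, and without *UTX TCD* replicate 1, at 0.0712 and 0.0571, and *Mogs* without *UTX TCD* replicate 2, at 0.0523. Among 17 disulfide isomerases and oxidases, 2 were higher and none was lower, and the median was 0.03. *Ero1b*, an oxidase that recharges the isomerases, was higher (log2 fold change 0.27, SE 0.07, limma adjusted p = 0.0151) but not without WT replicate 1 (limma adjusted p = 0.0611). *Pdia5* was scarce, with 3 to 38 reads per library. It was at 2.97, 6.91 and 4.58 in WT against 24.7, 30.4 and 28.01 in *UTX TCD* libraries (log2 fold change 2.36, SE 0.40, limma adjusted p = 0.00168), and its log2 fold change was 1.35 with a pseudocount of 10. Its WT mean of 4.82 was under the filter, and without a filter its limma adjusted p was 0.00245.

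Among the 6 UPR sensors and their proteases, 2 were lower and none was higher in limma, and the median was -0.13 on the log2 scale. *Atf6* was at 2064, 1686 and 2048 in WT against 1617, 1610.3 and 1188 in *UTX TCD* libraries. The genotypes did not overlap, and *UTX TCD* replicate 3 was the lowest (log2 fold change -0.40, SE 0.13, limma adjusted p = 0.0372). *Atf6* missed the threshold when libraries were scaled to equal sums of reads and without WT replicate 1, WT replicate 3 or *UTX TCD* replicate 3, at limma adjusted p = 0.0622, 0.118, 0.102 and 0.0756. Without *UTX TCD* replicate 3 its log2 fold change was -0.25. *Mbtps1*, the protease that first cleaves ATF6, was lower (log2 fold change -0.15, SE 0.04, limma adjusted p = 0.0261), but missed the threshold at equal sums of reads (log2 fold change -0.08, limma adjusted p = 0.0988) and without any 1 library other than WT replicate 2 (limma adjusted p between 0.0503 and 0.0984). Among 11 UPR transcription factors, 4 were higher (*Ddit3*, *Atf3*, *Atf5* and *Creb3l2*) and 2 lower (*Atf6* and *Atf4*), with a median log2 fold change of 0.13. *Atf3* had 5 to 25 reads per library, with 5.94, 4.94 and 6.10 normalized counts in WT against 29.2, 20.02 and 16.2 in *UTX TCD* libraries. The groups did not overlap (log2 fold change 1.74, SE 0.39, limma adjusted p = 0.00703), and the log2 fold change was 1.00 with a pseudocount of 10. Its WT mean of 5.66 was under the filter, and without a filter its limma adjusted p was 0.0114.

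Of 13 tested ATF4 and CHOP target genes, 5 were higher and 2 lower, 4 were called higher (*Ddit3*, *Asns*, *Sesn2* and *Atf3*, which passed the filter only through *UTX TCD* libraries), and the median log2 fold change was 0.00. *Asns*, which encodes asparagine synthetase, was at 79.2, 114 and 74.0 in WT against 468, 428 and 444 in *UTX TCD* libraries. Its *UTX TCD* mean was 5.02 times its WT mean (log2 fold change 2.34, SE 0.18, limma adjusted p = 2.14e-05). *Sesn2*, which encodes the stress-induced protein sestrin 2, had means of 528 ± 15.9 in WT and 986 ± 129 in *UTX TCD* libraries (SD, n = 3; log2 fold change 0.89, SE 0.11, limma adjusted p = 0.000299). *Atf5* was the other higher gene, and *Phgdh* and *Slc3a2* were lower. The rest, *Trib3*, *Ppp1r15a*, *Ddit4*, *Psat1*, *Shmt2* and *Mthfd2*, did not pass the test. Among 7 genes of eIF2α, its kinases and its phosphatase, 2 were higher and none was lower, and the median was -0.06. *Eif2ak2*, which encodes the double-stranded RNA sensor PKR, was at 3216, 2882 and 3335 in WT against 10892, 11328 and 8918 in *UTX TCD* libraries. The lowest *UTX TCD* library was well above the highest WT library (log2 fold change 1.72, SE 0.09, limma adjusted p = 2.53e-06). *Eif2ak4*, which encodes the amino acid sensor GCN2, was higher by less (log2 fold change 0.17, SE 0.04, limma adjusted p = 0.0128), and *Eif2ak3*, which encodes PERK, did not pass the test.

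ER-associated degradation had 3 higher and 3 lower genes among 23 tested, with a median log2 fold change of 0.01. *Syvn1*, the ubiquitin ligase HRD1, was higher (log2 fold change 0.34, SE 0.05, limma adjusted p = 0.00102), as was *Ubxn4*, an ER anchor for the ATPase p97 (log2 fold change 0.39, SE 0.06, limma adjusted p = 0.00119). *Edem2* was the other higher gene, and with *Herpud1* the lower genes were *Derl1* and *Selenos* (for *Selenos*, log2 fold change -0.31, SE 0.07, limma adjusted p = 0.00709). In the translocon and signal peptidase list, 8 of 15 tested genes were lower and 1, *Sec11c*, was higher, with a median of -0.12, beside 20.5% lower and 20.2% higher over all tested genes. *Spcs1*, a signal peptidase subunit, had means of 10542 ± 181 in WT and 7586 ± 90.0 in *UTX TCD* libraries (SD, n = 3; log2 fold change -0.47, SE 0.04, limma adjusted p = 3.05e-05). The translocon subunits *Sec61g* (log2 fold change -0.47, SE 0.05, limma adjusted p = 0.000117) and *Sec61b* (log2 fold change -0.39, SE 0.05, limma adjusted p = 0.00045) were also lower. No gene of this list was called.

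**Figure D2:**
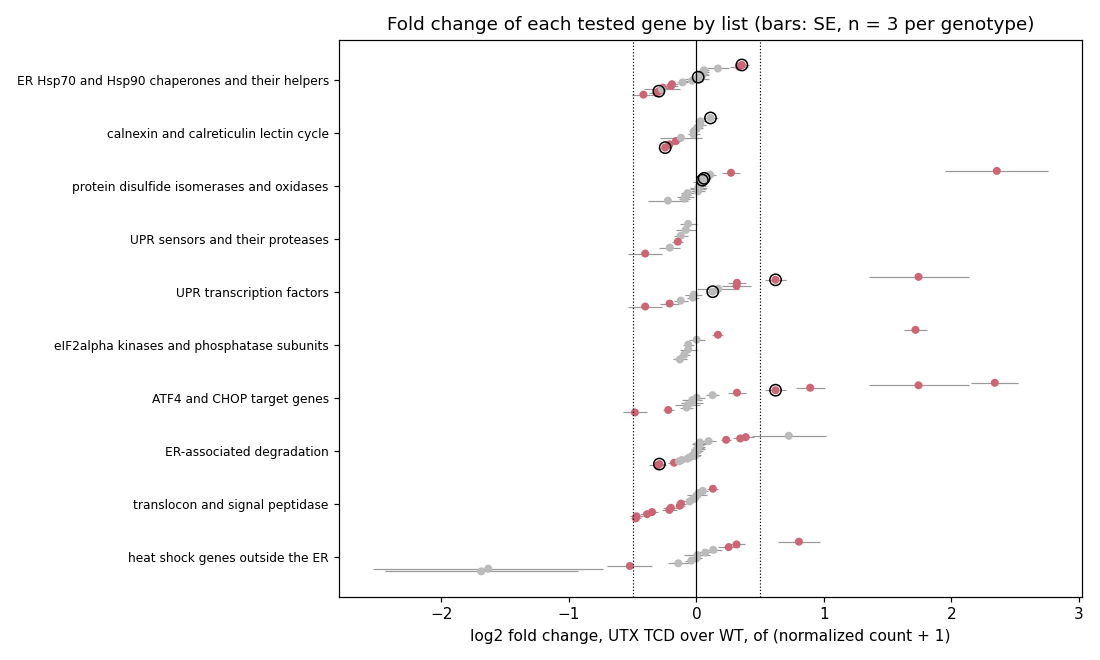
Log2 fold change (*UTX TCD* over WT, of normalized count + 1) of each tested gene in the 10 lists, with bars for the SE (n = 3 per genotype), red where the adjusted p was under 0.05 and gray elsewhere, black rings around the 10 genes of the set and dotted lines at -0.5 and 0.5. Points lie on both sides of 0 in most lists, and the genes farthest to the right are *Pdia5* at 2.36, *Asns* at 2.34, *Atf3* at 1.74 and *Eif2ak2* at 1.72.

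Marker genes were read to check the sorted cells, and those named for having passed the test were named after their values were seen. The counts of each marker list stand beside 20.2% higher and 20.5% lower over all tested genes. All 7 CD8+ T cell markers were tested, 1 was higher (*Cd3e*) and 3 were lower (*Cd3d*, *Cd3g* and *Cd8b1*), and their sum was 1038584, 997025 and 998040.0 in WT against 1027411, 993078 and 932789 in *UTX TCD* libraries. *Cd8a*, the most abundant, was at 272448, 270012 and 274004 in WT against 311527, 312999.9 and 270975 in *UTX TCD* libraries. Among genes behind the sort gates, *Slamf6* (Ly108) was at 27732, 34096 and 23305 in WT against 36665, 30979.8 and 35425 in *UTX TCD* libraries. The groups overlapped (log2 fold change 0.29, SE 0.12, limma adjusted p = 0.089), although without WT replicate 2 it passed (log2 fold change 0.43, limma adjusted p = 0.00921), and without WT replicate 3 its log2 fold change was 0.16 (limma adjusted p = 0.256). *Entpd1* (CD39) had at most 30 reads in any library. *Cxcr6* was at 12757, 9619 and 13724 in WT against 5286, 5994 and 5695 in *UTX TCD* libraries. All *UTX TCD* values were lower (log2 fold change -1.07, SE 0.12, limma adjusted p = 0.000131). *Cd44* was slightly higher (log2 fold change 0.17, SE 0.05, limma adjusted p = 0.0322) and missed the threshold without any 1 library other than *UTX TCD* replicate 2 (limma adjusted p between 0.0529 and 0.102). In bulk libraries, fewer cells of a kind and less RNA per cell cannot be told apart.

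Plasma cells and pancreatic acinar cells hold much ER, so their markers stand beside these genes. Of 10 B and plasma cell markers, 8 were tested, 4 were higher (*Ms4a1*, *Jchain*, *Sdc1* and *Igkc*) and 2 lower (*Cd79b* and *Ighm*). *Ighm*, the most abundant, was at 111648, 94692 and 103781 in WT against 94839, 89654 and 81282 in *UTX TCD* libraries. Their sum was 114661, 97218 and 106622 in WT against 96222, 90856 and 82519.7 in *UTX TCD* libraries, and none of them was at 0 in all libraries. Without *Ighm* the sum was 3013, 2526 and 2842 in WT against 1383, 1202 and 1238 in *UTX TCD* libraries. Most of the WT sum was *Cd79b*, at 2502, 1930.1 and 2465 in WT against 648, 633 and 469.6 in *UTX TCD* libraries. In *UTX TCD* replicates 1 and 3 the other 8 markers together exceeded *Cd79b*. The other 8 markers summed to 511, 596 and 377 in WT against 736, 569 and 768 in *UTX TCD* libraries, a sum chosen after the values were seen, and the genotypes overlapped. Of the plasma cell genes, *Jchain* was at 15.8, 29.6 and 9.91 in WT against 38.2, 30.4 and 89.2 in *UTX TCD* libraries. *Sdc1* was at 8.92, 10.9 and 6.10 in WT against 22.5, 23.2 and 19.2 in *UTX TCD* libraries, *Igkc* at 34.7, 43.4 and 23.6 in WT against 81.0, 55.3 and 117 in *UTX TCD* libraries, and *Mzb1*, also chosen after its values were seen and not tested, at 2.97, 5.92 and 1.53 in WT against 20.2, 11.2 and 11.8 in *UTX TCD* libraries. For each of these 4 genes all *UTX TCD* values lay above all WT values. Of 12 acinar and islet markers, 2 were tested and 1 was lower (*Cela1*). The sum of these markers was 221, 195 and 171 in WT against 157, 147 and 125 in *UTX TCD* libraries, *Prss2* was the most abundant and *Ins2* was at 0 in all libraries. Without *Prss2* the sum was 45.6, 36.5 and 45.8 in WT against 22.5, 33.6 and 17.7 in *UTX TCD* libraries. Of 8 myeloid and dendritic cell markers, 6 were tested, 1 was higher (*Cd68*, the most abundant) and 3 were lower (*Csf1r*, *Itgam* and *Itgax*). The myeloid sum was 1301, 1267 and 1133 in WT against 1129, 886 and 1039 in *UTX TCD* libraries, and without *Cd68* it was 615, 599 and 589.5 in WT against 157, 183 and 144 in *UTX TCD* libraries. Of 5 CD4+ T cell and NK cell markers, 4 were tested and 2 were lower (*Cd4* and *Zbtb7b*), *Foxp3* was the most abundant, and the sum was 511, 428 and 458 in WT against 387, 356 and 373 in *UTX TCD* libraries. Without *Foxp3* it was 194, 194 and 186 in WT against 81.0, 92.1 and 92.9 in *UTX TCD* libraries. Of the markers that passed the test, *Sdc1* passed the filter only through *UTX TCD* libraries, and *Cela1*, *Csf1r* and *Itgax* only through WT libraries. The part of such cells in the values of the 10 genes was not tested.

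Chromatin accessibility at the genes was read from the ATAC-seq peaks that the authors listed at an FDR under 0.05 between the genotypes, with no limit on the size of the difference, each named for its nearest promoter. Of 23932 listed peaks of 401 bp, 11 were assigned to 6 of the 10 genes, and *Hspa5*, *Hsp90b1*, *Calr* and *Pdia4* had none. For comparison, 47.6% of all tested genes had at least 1 listed peak. None of the 11 peaks lay within 1 kb of a transcription start site, where 14.9% of all listed peaks lay. Accessibility is given as the authors' mean log2 concentration per genotype, with no spread between libraries. This mean was higher in *UTX TCD* cells at 6 of the 11 peaks and lower at 5, beside 68.8% higher among all listed peaks. At 3 of the 11 peaks, that of *Pdia6*, the middle of 3 near *Xbp1* and 1 of *Herpud1*, the means differed by at most 0.5 on the log2 scale, as they did at 26.9% of all listed peaks.

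The peak assigned to *Ddit3*, at chr10:127300696-127301096 and 10103 bp downstream of its start site, lies in an intron of the neighboring gene *Mars1*. Its mean log2 concentration was 7.04 in *UTX TCD* and 4.23 in WT cells. Both peaks of *Dnajc3* had higher means in *UTX TCD* cells, whereas the counts of the gene were lower. That at chr14:118965618-118966018 lies in a *Dnajc3* intron, with means of 6.69 in *UTX TCD* and 6.12 in WT cells. The other, at chr14:119012989-119013389, lies 75257 bp from the *Dnajc3* start site in an intron of *Uggt2*, with means of 7.24 and 5.89. All 3 peaks of *Herpud1* were intergenic and had lower means in *UTX TCD* cells, where its counts were lower too. At chr8:94375627-94376027 the mean was 8.91 in *UTX TCD* and 9.28 in WT cells, at chr8:94397320-94397720 it was 7.31 and 7.92, and at chr8:94408693-94409093 it was 6.95 and 8.37.

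*Xbp1* had 3 peaks upstream of its start site, with means that differed in both directions. At chr11:5501161-5501561 the mean was 5.86 in *UTX TCD* and 6.68 in WT cells, and at chr11:5509336-5509736 it was 5.74 and 7.12. Between them, at chr11:5505874-5506274, it was 8.75 in *UTX TCD* and 8.47 in WT cells. The first and the middle of these lie within the RefSeq gene *Gm11963*, the middle one touching an exon. *Canx* had 1 intergenic peak at chr11:50336539-50336939, with means of 5.66 in *UTX TCD* and 4.02 in WT cells. *Pdia6* had 1 intergenic peak at chr12:17256913-17257313, with means of 8.27 and 7.97.

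Promoters were compared next, since many ER chaperone genes are known to share a regulatory element. The ER stress element (ERSE) is CCAAT, 9 bases of any kind, then CCACG, and ERSE-II is ATTGG, 1 base of any kind, then CCACG. Both were searched on both strands of RefSeq promoters of GRCm38.p6, which run from 250 bases before to 50 bases after the start site, and all 10 genes were matched. ERSE was found in 6 of the 10 promoters, those of *Hspa5*, *Hsp90b1*, *Calr*, *Canx*, *Pdia6* and *Dnajc3*, and in 0.119% of all 32851 promoters. ERSE-II was found in the promoter of *Herpud1* and in 0.0365% of all promoters. The letters CCAAT, which both elements hold (ATTGG is CCAAT on the other strand), and CCACG were in 37.4% and 32.8% of all promoters. TGATG, the core of the composite element bound by ATF4, was in 39.3% of all promoters and, of the 10 genes, in that of *Herpud1*. Promoter bases outside this window were not searched, for *Ddit3* or any other gene. The promoters of *Pdia4* and *Ddit3* held CCAAT without a whole element, and that of *Xbp1* held none of these letters in the window. The sites are shown because genes that were higher and genes that were lower carry them, 5′ to 3′ on the strand of the match, with the fixed bases in capitals.
*Calr*, chr8:84847075-84847093, plus strand: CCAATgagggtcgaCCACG
*Canx*, chr11:50325800-50325818, minus strand: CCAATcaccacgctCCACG
*Dnajc3*, chr14:118937827-118937845, plus strand: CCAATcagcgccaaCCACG
*Hsp90b1*, chr10:86705638-86705656, minus strand: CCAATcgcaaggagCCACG
*Hsp90b1*, chr10:86705533-86705551, plus strand: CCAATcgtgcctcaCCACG
*Hspa5*, chr2:34772025-34772043, plus strand: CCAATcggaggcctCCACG
*Pdia6*, chr12:17266491-17266509, plus strand: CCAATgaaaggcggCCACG
*Herpud1*, chr8:94386377-94386387, plus strand: ATTGGgCCACG

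Of the 6 genes with ERSE among the 10, *Hspa5* was higher, *Calr* and *Dnajc3* were lower and *Hsp90b1*, *Canx* and *Pdia6* did not pass the test. The other genes of the 9 lists with ERSE were *Ero1b* and *Syvn1*, both higher, *Creld2*, lower, and *Derl3*, which did not pass. Over all 37 genes with ERSE in this window, these 6 included, 22 were tested, 3 were higher and 9 lower, 0 were called higher and 6 called lower, with a median log2 fold change of -0.15. All of the genes called lower were outside the 9 lists. Among those called lower, *1700122E12Rik*, chosen after its values were seen, passed the filter only through WT libraries, and without a filter it missed the threshold (limma adjusted p = 0.0529). Of 12 genes with ERSE-II, 9 were tested, 0 were higher and 3 lower, with a median of -0.11. Over all tested genes 20.2% were higher, 20.5% lower and 17.6% called, with a median of -0.00. The genes with ERSE include *Xlr3a*, *Xlr3b* and *Xlr3c*, near-identical copies whose reads may be split between them. The promoters of *Hspa5*, *Dnajc3* and *Herpud1* are printed to show the setting of such sites in genes that differed in both directions, with ERSE or ERSE-II in capitals.
*Hspa5* promoter, chr2:34771840-34772139, plus strand: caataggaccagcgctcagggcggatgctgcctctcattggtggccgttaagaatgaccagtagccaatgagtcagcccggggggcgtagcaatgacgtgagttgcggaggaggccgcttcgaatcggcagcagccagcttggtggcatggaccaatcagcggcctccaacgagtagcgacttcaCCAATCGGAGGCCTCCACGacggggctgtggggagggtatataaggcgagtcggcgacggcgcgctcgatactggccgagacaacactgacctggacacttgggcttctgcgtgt
*Dnajc3* promoter, chr14:118937682-118937981, plus strand: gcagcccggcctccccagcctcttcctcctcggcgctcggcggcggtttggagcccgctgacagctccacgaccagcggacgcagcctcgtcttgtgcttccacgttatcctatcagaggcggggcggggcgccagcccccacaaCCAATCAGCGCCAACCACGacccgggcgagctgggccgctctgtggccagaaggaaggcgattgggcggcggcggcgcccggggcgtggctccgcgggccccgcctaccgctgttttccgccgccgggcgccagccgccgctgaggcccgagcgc
*Herpud1* promoter, chr8:94386179-94386478, plus strand: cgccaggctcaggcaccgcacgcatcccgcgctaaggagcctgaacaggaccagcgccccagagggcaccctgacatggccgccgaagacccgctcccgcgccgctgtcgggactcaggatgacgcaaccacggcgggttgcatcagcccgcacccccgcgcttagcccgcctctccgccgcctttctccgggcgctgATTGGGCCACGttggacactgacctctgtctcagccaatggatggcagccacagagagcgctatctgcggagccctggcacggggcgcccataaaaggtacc

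No whole ERSE or ERSE-II was found in the 11 peaks, and each was found in 0.0167% of 23908 listed peaks searched. The middle 201 bases of 2 peaks are printed, 1 with a higher and 1 with a lower mean in *UTX TCD* cells, with CCAAT on either strand in capitals. The peak assigned to *Ddit3* held neither CCAAT nor CCACG nor TGATG.
Middle of the peak assigned to *Ddit3*, chr10:127300796-127300996, plus strand: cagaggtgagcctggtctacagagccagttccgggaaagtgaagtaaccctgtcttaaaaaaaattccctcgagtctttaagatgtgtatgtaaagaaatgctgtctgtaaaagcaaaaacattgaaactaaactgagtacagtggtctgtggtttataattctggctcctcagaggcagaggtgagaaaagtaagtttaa
Middle of the peak assigned to *Herpud1*, chr8:94408793-94408993, plus strand: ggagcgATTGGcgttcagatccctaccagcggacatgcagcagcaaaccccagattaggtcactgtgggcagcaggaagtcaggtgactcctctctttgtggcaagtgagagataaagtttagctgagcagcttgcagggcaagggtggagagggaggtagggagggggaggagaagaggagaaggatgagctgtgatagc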

How the data were processed

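RNA-seq and ATAC-seq each covered 3 WT and 3 *UTX TCD* libraries, grouped by the sample labels. The authors aligned RNA-seq reads to mm10 with HISAT2 2.2.1, counted them with featureCounts and divided them by DESeq2 size factors, and this deposited signal per gene was used. Gene annotation and strand setting are not given in the sources used here, so overlapping and antisense genes are uncertain. Within a tolerance of 0.01, 100% of values were whole multiples of a step particular to the library, which gave back whole reads. For ATAC-seq the authors used Cutadapt, Bowtie2, MACS2, DiffBind and HOMER, and a shift for the transposase is not given in the sources used here. The deposited log2 concentration per genotype is the authors' mean, and the deposited FDR, an adjusted p-value, served only to check that all 23932 peaks were under 0.05. Fold changes, standard errors and p-values deposited by the authors hold their own comparisons of the genotypes and were not used.

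The test was limma 3.58.1 in R 4.3.3 (eBayes with trend, two-sided, Benjamini-Hochberg) with genotype as the only term and a pseudocount of 1. On recovered reads, edgeR 4.0.16 called 2541 genes and DESeq2 1.42.0 called 2422. An exact permutation test of 3 against 3 cannot go below p = 0.10. For ATAC-seq the methods of the study give 3 mice and 3 biological replicates per genotype. For RNA-seq the study gives 3 per group, the labels number the replicates without naming mice, and the methods do not state that each library is 1 mouse, so p-values measure the spread between these libraries. No library was a copy of another, with a chi-square per gene of at least 12.5 between any pair. A floor of 3 reads is a normalized count of 2.21 to 6.75 and covers counting error only.

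The genes and lists were chosen with earlier results of these data known. The rule for named genes took the 10 genes, *Kdm6a*, 4 sort markers, in each list every called gene and up to 3 with the largest change at an adjusted p under 0.05, the 3 genes most like *Hspa5* and *Xbp1*, and for markers the most abundant gene and those at 0. Older symbols of 4 list genes (now *Ero1a*, *Ero1b*, *Ufd1* and *Selenos*) were updated. Exon lengths and sequences came from RefSeq for GRCm38.p6, and 96.1% of tested genes had a length. Alternatives covered the pseudocount, filter, scaling, test, replicate block, fold limit, each library left out and peaks near start sites. Protein motifs were part of the design and were not analysed here.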

Additional observations from a re-analysis of the deposited data

How the results depend on the processing

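In all 15 alternative fits, *Hspa5* and *Ddit3* stayed higher and *Calr*, *Dnajc3* and *Herpud1* lower at an adjusted p under 0.05, with log2 fold changes of 0.31 to 0.42, 0.55 to 0.68, -0.28 to -0.18, -0.33 to -0.23 and -0.31 to -0.23. Of the 10 genes, 7 passed in place of 5 at equal sums of reads, a scaling that moved the median of all genes by 0.06 on the log2 scale and at which *Cwf19l1*, *Sephs1* and *Aars1* passed too. *Hsp90b1*, which passed nowhere, was at 0.0762 at equal sums of reads and at -0.0164 to 0.0499 with a library left out. It changed sign without WT replicate 1 (-0.0164) and without *UTX TCD* replicate 3 (-0.00147). The cause was not tested. Same-numbered libraries are not stated to share a mouse, and their deviations correlated at r = 0.305, -0.200 and 0.0897, so the numbers were not taken as pairs. With the replicate block, 2474 genes were called in place of 2538. Among the 43 genes followed, of which *Atf3*, *Pdia5* and *Entpd1* were not tested at a mean of at least 50, it changed the side of the threshold for *Aars1*, which passed at limma adjusted p = 0.0491, and for no other. Of 150 tested genes of the 10 lists and the marker lists, 4 no longer passed with the block, *Creb3l2*, *Jchain*, *Sec11c* and *Tram1* (limma adjusted p = 0.0677, 0.0819, 0.0504 and 0.0572), 2 passed, *Eif2s1* and *Hspa13* (0.0368 and 0.0331), and 144 stayed on their side. Genes outside the 43 are given without the other alternatives. Over the 10 lists, 7 genes were called higher, 6 of the ER and UPR lists and *Hsph1* of the heat shock list, but 5 with a mean of at least 50, where fewer genes were tested, and 8 without *UTX TCD* replicate 3. The count called lower was 1, *Dnajb1* of the heat shock list, and 0 at equal sums of reads, with DESeq2 and with a limit of 1.5-fold, while with edgeR it was 1 through *Hspa1b* in place of *Dnajb1*. It ranged from 0 to 4 with a library left out, at 0 without WT replicate 3, 1 without WT replicate 1 (*Phgdh*), 4 without WT replicate 2 (*Dnajb1*, *Hspa1a*, *Hspa1b* and *Phgdh*) and 2 without *UTX TCD* replicate 2 (*Dnajb1* and *Phgdh*) or 3 (*Phgdh* and *Serp1*). The cause was not tested. With peaks within 1 kb of a start site only, 0 of the 11 peaks were left. Genes of few reads, such as *Pdia5* and *Atf3*, are limited by depth, which was lowest in *UTX TCD* replicate 1.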

Other observations

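Heat shock genes outside the ER, most of them cytosolic, were read beside the ER chaperones. *Hspa1a*, which encodes an inducible Hsp70, was at 895, 89.8 and 1051 in WT against 216, 244 and 53.1 in *UTX TCD* libraries, and *Hspa1b* at 1476, 199 and 1471 in WT against 335, 369 and 104 in *UTX TCD* libraries. These are near-identical copies whose reads may be split between them, and WT replicate 2 lay within the *UTX TCD* range for both. *Hsph1*, a nucleotide exchange factor of cytosolic Hsp70, was at 41271, 64654 and 43018 in WT against 90513, 94438 and 71439 in *UTX TCD* libraries. The groups did not overlap (log2 fold change 0.80, SE 0.17, limma adjusted p = 0.0045). WT replicate 2 was the highest WT library for *Hsph1* and the lowest for *Hspa1a* and *Hspa1b*. *Dnajb1*, an Hsp40 co-chaperone, was at 31900.0, 25438 and 31714 in WT against 24145, 24235 and 14855 in *UTX TCD* libraries, with *UTX TCD* replicate 3 the lowest (log2 fold change -0.52, SE 0.18, limma adjusted p = 0.0414). Without that library its log2 fold change was -0.29 (limma adjusted p = 0.0462), and it missed the threshold without WT replicate 1 or 3 (limma adjusted p = 0.115 and 0.103), at equal sums of reads (0.0631) and with DESeq2 (0.0841). With edgeR it passed the threshold but its log2 fold change of -0.49 was under the limit for a call. *Hsp90ab1*, a cytosolic Hsp90, was higher (log2 fold change 0.31, SE 0.07, limma adjusted p = 0.00628). Of the 12 genes tested, which include *Hspd1* and *Hspe1* of the mitochondrial chaperonin, 3 were higher (*Hsph1*, *Hsp90ab1* and *Hspd1*) and 1 lower (*Dnajb1*), with a median log2 fold change of 0.01, beside 20.2% higher and 20.5% lower over all tested genes. *Hspa1a*, *Hspa1b*, *Hspd1* and *Hspe1* were chosen after their values were seen.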
